A study of Homo sapiens with 8 samples.

Results

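The genes described here are 8 factors that mark the midbrain and the isthmus in the early neural tube: EN1, EN2, PAX2, PAX5, PAX8, LMX1A, LMX1B and CNPY1. They were chosen by name from a table of 35940 gene names, and all 8 had 1 row each. The table holds poly(A) RNA sequencing of ESI017, a wild type human embryonic stem cell line, labelled as differentiating towards posterior neural fate. All libraries came from cells kept in N2B27 medium, which lacks serum and favours neural fate, plus SB at 10 μM and LDN at 100 nM, inhibitors of activin/nodal and BMP receptors. Recombinant WNT3A protein, at 300 ng/mL, was added at 34 h. The groups were 34 h, before WNT3A acted, and 42, 50 and 72 h, that is 8, 16 and 38 h after its addition, with 2 libraries each. All groups shared the line, the medium and both inhibitors, and time and WNT3A cannot be told apart because a WNT3A-free arm was not analysed here.

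The isthmus is the constriction between midbrain and hindbrain, and it forms where the anterior factor OTX2 meets the posterior factor GBX2. It acts as a signalling centre through FGF8 and WNT1. In vertebrate embryos PAX2 is among the first genes to turn on there, followed by EN1, PAX5 and EN2, and these factors maintain each other and the FGF and WNT signals. LMX1B helps to induce that circuit, while LMX1A marks the roof plate and the midbrain floor plate, where dopamine neurons arise. CNPY1 is a small secretory pathway protein known for raising FGF signalling at the boundary in fish.

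Levels are TPM, a length-scaled share of the transcripts of a library, as deposited by the authors, and the sequencing depth is unknown. In bulk RNA, fewer cells of a type and less RNA per cell cannot be told apart. Every library summed to 1000000 TPM, and between 13860 and 14004 genes reached 1 TPM. Spearman correlations over tested genes were 0.980 to 0.984 within a time point and 0.933 to 0.982 between time points. All 8 listed pluripotency markers reached 1 TPM in both libraries of at least 1 time point, as did 7 of 8 neural progenitor markers, 7 of 8 hindbrain markers and 3 of 8 forebrain markers. The pluripotency markers summed to 3535 to 3550 TPM at 34 h and 1915 to 2016 TPM at 72 h. The neural progenitor markers summed to 556 to 566.5 TPM at 34 h and 970 to 1043 TPM at 72 h. The hindbrain markers summed to 0.915 to 1.80 TPM at 34 h and 108 to 128 TPM at 72 h. All 7 that were tested were raised at 72 h against 34 h, where 12.7% of all tested genes were. However, all of the 7 but EGR2 were under 1 TPM at 34 h and passed the filter on low values only through later time points. The forebrain markers summed to 57.0 to 64.2 TPM at 34 h and 14.98 to 21.8 TPM at 72 h. The part of these in the changes of the members was not tested.

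All 8 genes were at low levels. PAX2 and EN1 were the members that stood above both 34 h libraries in all 6 later libraries, as did 8.49% of the 22275 gene names above 0 in any library. PAX2 was called raised at 72 h against 34 h, a call that did not hold when 1 library at 34 h or 72 h was left out, and EN1 was too low to be tested. The summed level of all 8 was 3.36 and 3.35 TPM at 34 h, 8.28 and 4.55 at 42 h, 7.20 and 7.15 at 50 h, then 6.18 and 7.39 at 72 h. Averaged over the libraries, the order was PAX2 (2.30 TPM), PAX8 (1.71 TPM), LMX1B (1.055 TPM), LMX1A (0.506 TPM), EN1 (0.189 TPM), PAX5 (0.108 TPM), CNPY1 (0.0620 TPM) and EN2 (0.0025 TPM). The range of each gene over the 8 libraries overlapped that of its neighbour in this order. By this mean, 34.9% of all 35940 gene names were more abundant than PAX2 and 61.8% were more abundant than EN2. Only 22275 of these names were above 0 in any library, so among detected genes both rank lower than these shares imply.

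PAX2 lies on the plus strand of chromosome 10, from 100735603 to 100829941 (GRCh38, GENCODE 29). RefSeq promoter windows (GRCh38.p14) matched 7 of the 8 genes, all except EN1, with 11 windows in all. The 250 bases before the start are printed for both listed starts of PAX2, the member called raised, for its relative PAX8, and for the window of CNPY1 that held a searched motif. The letters CTTTGA, a core of the sites bound by the TCF and LEF factors of the WNT pathway, were searched on both strands, as was TAATTA, a core of homeodomain sites. A match is in capitals.
PAX2, first start, chr10:100735146-100735395, plus strand: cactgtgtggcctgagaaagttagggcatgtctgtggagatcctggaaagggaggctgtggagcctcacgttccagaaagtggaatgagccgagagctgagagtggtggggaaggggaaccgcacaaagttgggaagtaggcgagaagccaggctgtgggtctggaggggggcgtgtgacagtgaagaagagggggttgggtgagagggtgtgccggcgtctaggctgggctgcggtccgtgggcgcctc
PAX2, second start, chr10:100745332-100745581, plus strand: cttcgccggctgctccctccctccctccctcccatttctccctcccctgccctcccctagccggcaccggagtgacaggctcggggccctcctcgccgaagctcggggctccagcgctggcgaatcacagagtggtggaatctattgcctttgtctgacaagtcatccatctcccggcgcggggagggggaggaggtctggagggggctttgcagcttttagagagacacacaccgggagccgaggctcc
PAX8, chr2:113278922-113279171, minus strand: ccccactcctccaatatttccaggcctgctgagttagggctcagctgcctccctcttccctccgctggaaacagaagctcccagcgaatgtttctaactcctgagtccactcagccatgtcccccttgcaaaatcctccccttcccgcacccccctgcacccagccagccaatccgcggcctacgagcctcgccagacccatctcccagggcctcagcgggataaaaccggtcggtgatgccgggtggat
CNPY1, the third start, chr7:155509875-155510124, minus strand: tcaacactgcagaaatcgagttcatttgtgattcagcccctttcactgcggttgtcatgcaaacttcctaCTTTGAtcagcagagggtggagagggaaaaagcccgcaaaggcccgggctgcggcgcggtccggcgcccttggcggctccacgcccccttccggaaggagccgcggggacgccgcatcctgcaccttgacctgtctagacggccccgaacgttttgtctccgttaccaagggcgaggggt
CTTTGA was found in that 1 CNPY1 window and in none of the other 10, and TAATTA in none of the 11. Over all 35116 windows of this length in the table, 11.2% held CTTTGA and 4.35% held TAATTA. The windows of the members had between 58.8% GC (the first of CNPY1) and 81.2% GC (EN2).

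PAX2 encodes a paired-box transcription factor, an early regulator of the isthmus that also acts in the kidney, ear and eye. It was listed at 0 and had 0.0664 TPM in the replicate 1 and 2 libraries at 34 h. At 42 h it had 4.79 and 0.958 TPM, at 50 h 4.28 and 1.84 TPM, and at 72 h 2.85 and 3.59 TPM. All 6 libraries taken after WNT3A lay above both 34 h libraries. Replicate 1 was the higher at 42 and 50 h and replicate 2 at 72 h, and the 3 later time points overlapped.

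Changes were tested with limma on log2(TPM + 1), with Benjamini-Hochberg adjustment over the 14908 genes that had at least 1 TPM in at least 2 libraries. Of the 8 members 3 passed this filter, PAX2, PAX8 and LMX1B. PAX2 passed only through the time points at which it was high, so its direction was partly set by the filter. The same holds for every gene named below that was under 1 TPM in both 34 h libraries and was called raised. At 72 h against 34 h, 1 of the 3 tested members was called raised (adjusted p under 0.05) and none lowered, while over all tested genes 12.7% were called raised and 24.0% in either direction. That member was PAX2, with a change of 2.03 ± 0.49 (SE) on the log2 scale, a 95% interval of 0.89 to 3.16 and an adjusted p from limma of 0.0209. Replicate 1 alone gave 1.95 and replicate 2 alone 2.10. The call was lost when any 1 of the 4 libraries at 34 h or 72 h was left out (limma adjusted p 0.0733 to 0.102) and without the filter on low values (0.0580), with a range of 0.00232 to 0.102 over 17 alternatives. With a pseudocount of 0.1 in place of 1 the estimate was 4.68.

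At 42 h against 34 h the call rate over all tested genes was 2.58% and none of the 3 tested members was called by limma, with 1 at an unadjusted p under 0.05. PAX2 changed by an estimated 1.71 ± 0.49 (SE), with 2.53 within replicate 1 and 0.88 within replicate 2 (limma adjusted p 0.153). It passed with a pseudocount of 0.1 (estimate 4.14, limma adjusted p 0.0294) and without replicate 2 at 42 h (0.0388), and ranged from 0.0294 to 0.422 over 16 alternatives. The estimate without replicate 1 at 42 h was 0.92. At 50 h against 34 h 6.26% of all tested genes were called and again none of the members, with 1 at an unadjusted p under 0.05. The estimate for PAX2 was 1.91 ± 0.49 (SE, limma adjusted p 0.0637), and the replicate block, which uses the batch number of the labels, moved it past the threshold (0.0497). Other settings that put it past the threshold were a fit of the compared time points alone (0.0402), a pseudocount of 0.1 (0.0114, estimate 4.50) and the loss of either 42 h library (0.0195 without replicate 1, 0.0177 without replicate 2). The range was 0.0114 to 0.254 over 17 alternatives.

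After 42 h PAX2 showed no further change past the threshold. Its estimate was 0.20 for 50 h against 42 h (95% interval -0.94 to 1.34, limma adjusted p 0.944) and 0.12 for 72 h against 50 h (-1.02 to 1.26, limma adjusted p 0.920). No member was called in either of these comparisons, in which 0.0939% and 7.33% of all tested genes were called, and none had an unadjusted p under 0.05. The F-test over the 4 time points, which called 17.4% of genes, gave PAX2 a limma adjusted p of 0.0570, and 0.0431 with the replicate block.

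**Figure D1:**
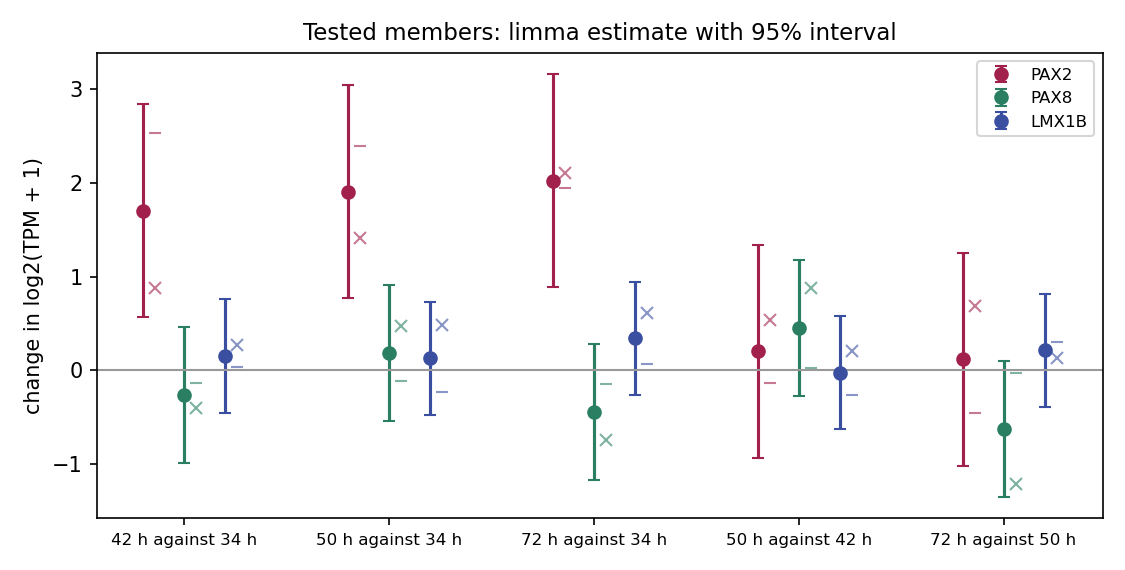
Estimated change in log2(TPM + 1) (y axis) for PAX2, PAX8 and LMX1B in 5 comparisons of time points (x axis); circles are limma estimates, bars their 95% intervals, dashes the change within replicate 1 and crosses that within replicate 2. PAX2 stands at 1.71, 1.91 and 2.03 against 34 h, with the replicates far apart at 42 h, and the intervals of PAX8 and LMX1B all include 0.

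PAX8 and PAX5 are the closest relatives of PAX2 and share its paired domain and octapeptide. PAX8 acts in thyroid, kidney and ear, and PAX5 is the isthmus member that also fixes B cell identity. PAX8 (chromosome 2, 113215997 to 113278950, minus strand) had 1.62 and 2.18 TPM at 34 h, 1.38 and 1.41 at 42 h, 1.42 and 3.42 at 50 h, then 1.37 and 0.901 at 72 h. Both 42 h and both 72 h libraries lay below the 34 h libraries, and replicate 2 at 50 h was the highest of all. No change of PAX8 passed the threshold, which does not show that it stayed the same: the estimate for 72 h against 34 h was -0.44 (95% interval -1.17 to 0.28, limma adjusted p 0.349). The antisense gene PAX8-AS1 overlaps most of PAX8 and was not analysed here, and whether counting used strand is not given in the sources used here, so reads of the pair may not be separated.

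PAX5 (chromosome 9, 36833275 to 37034185, minus strand) had 0.0422 and 0.0152 TPM at 34 h, 0.219 and 0.142 at 42 h, 0.233 and 0.0733 at 50 h, then 0.1095 and 0.0306 at 72 h. The 42 and 50 h libraries lay above both 34 h libraries and the 72 h libraries overlapped them. All of these values are under 1 TPM and PAX5 was not tested.

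Within the PAX2, PAX5 and PAX8 trio the leading gene differed by time point. PAX8 held 97.5% and 96.4% of the summed TPM of the trio at 34 h. At 72 h PAX2 held 65.9% and 79.4%. In between, the replicates differed: PAX2 held 75.0% in replicate 1 and 38.1% in replicate 2 at 42 h, and 72.1% and 34.5% at 50 h. Thus PAX2 was above PAX8 in both libraries only at 72 h, and below it in both only at 34 h, among the 4 time points.

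**Figure D2:**
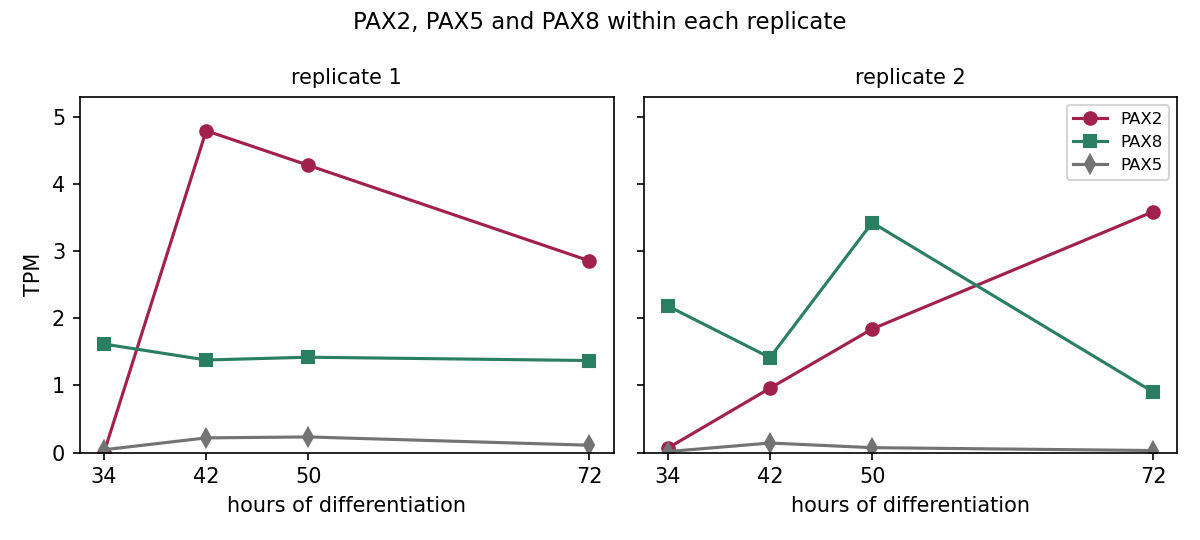
TPM (y axis) of PAX2, PAX8 and PAX5 against hours of differentiation (x axis), with 1 panel per replicate and 1 point per library. PAX2 overtakes PAX8 by 42 h in replicate 1 (4.79 against 1.38 TPM) but only at 72 h in replicate 2 (3.59 against 0.901 TPM), and PAX5 stays under 0.25 TPM.

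EN1 and EN2 encode the Engrailed homeodomain repressors, which set the identity of midbrain and anterior hindbrain. EN1 (chromosome 2, 118842171 to 118847678, minus strand) was listed at 0 in replicate 1 and 0.0572 TPM in replicate 2 at 34 h. It then had 0.515 and 0.412 at 42 h, 0.146 and 0.195 at 50 h, then 0.0755 and 0.115 at 72 h. Both 42 h libraries were above all 6 others, and the 50 and 72 h libraries remained above the 34 h ones. EN1 did not reach 1 TPM in any library and so was not tested. In the alternative fit without the filter, over 22275 genes, its 42 h estimate was 0.51 (limma adjusted p 0.0484), the 1 member called there, and its later fall from 42 h to 50 h was not called (-0.32, limma adjusted p 0.361).

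EN2 (chromosome 7, 155458129 to 155464831, plus strand) was listed at 0 in 7 of the 8 libraries and had 0.0200 TPM in replicate 1 at 42 h. It had the lowest mean of the 8 members. CNPY1 (chromosome 7, 155474206 to 155555450, minus strand) lies next to EN2, with 9374 bases between the facing ends of the genes. CNPY1 had 0.0236 and 0.0916 TPM at 34 h, was listed at 0 in all 42 and 50 h libraries and in replicate 1 at 72 h, and reached 0.381 TPM in replicate 2 at 72 h. The level in that 1 library was above all others of CNPY1 and was not shared by its replicate.

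LMX1A and LMX1B encode LIM-homeodomain factors, which need the cofactor LDB1 to act. LMX1B (chromosome 9, 126614443 to 126701032, plus strand) had 1.10 and 0.596 TPM at 34 h, 1.15 and 0.927 at 42 h, 0.794 and 1.23 at 50 h, then 1.20 and 1.44 at 72 h. The 72 h libraries were above both 34 h libraries, and the other groups overlapped 34 h. The estimate for 72 h against 34 h was 0.34 (95% interval -0.26 to 0.95, limma adjusted p 0.386), and no comparison of LMX1B passed the threshold. LMX1A (chromosome 1, 165201867 to 165356715, minus strand) stayed between 0.211 and 0.938 TPM, with its extremes in replicate 1 at 42 h and replicate 2 at 72 h, and was not tested. Its values at 42, 50 and 72 h all overlapped those at 34 h (0.574 and 0.345 TPM). LMX1B was above LMX1A in every library and held between 57.2% and 84.4% of the sum of the pair.

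**Figure D3:**
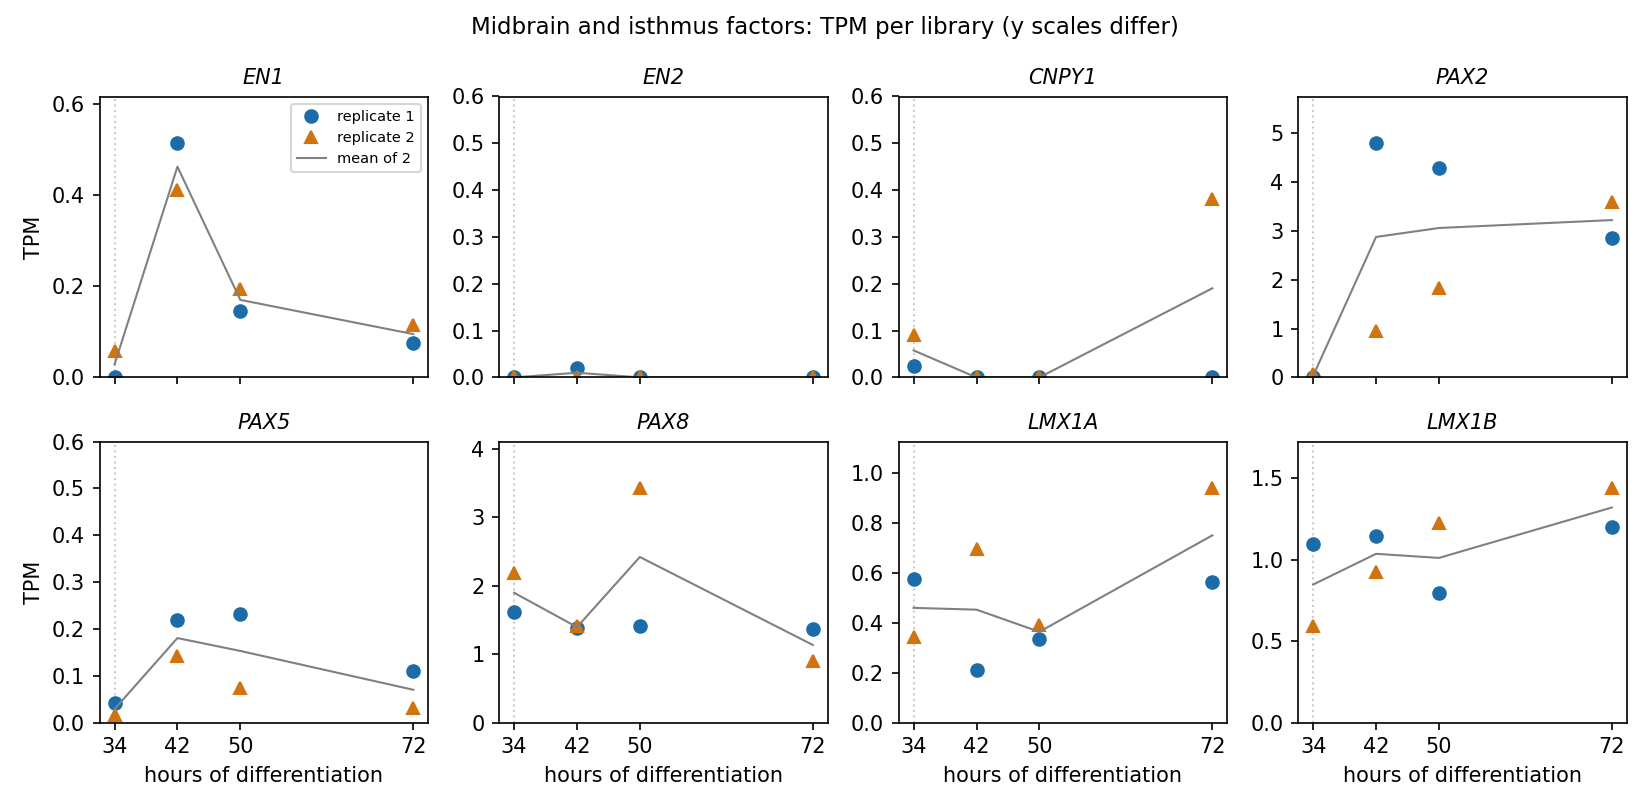
TPM (y axis, scale differs between panels) of the 8 genes against hours of differentiation (x axis); circles are replicate 1, triangles replicate 2, the grey line their mean and the dotted line the addition of WNT3A at 34 h. PAX2 reaches 4.79 TPM, PAX8 3.42 TPM and LMX1B 1.44 TPM, while EN1, EN2, CNPY1, PAX5 and LMX1A stay under 1 TPM in all 8 libraries.

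Counted without a test, 3 of the 8 members (EN1, PAX2 and PAX5) had both 42 h libraries above both 34 h libraries, where 17.6% of the 22275 gene names above 0 in any library did. The same 3 did so at 50 h, where the share over all was 22.3%. At 72 h the 3 were EN1, PAX2 and LMX1B, against 28.5% over all. In the other direction there were 2 members at 42 h (PAX8 and CNPY1, 17.7% over all), 1 at 50 h (CNPY1, 17.7%) and 1 at 72 h (PAX8, 23.3%). The median change of the 3 tested members against 34 h was 0.15, 0.18 and 0.34 at 42, 50 and 72 h, beside 0.01, 0.04 and 0.06 over all tested genes. A median of 3 is the estimate of 1 gene, here LMX1B at 42 and 72 h and PAX8 at 50 h. No change of either gene was called.

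The genes with the profile most like PAX2 over the 8 libraries, among 2301 tested genes whose time point means spanned at least 1 on the log2 scale, were WDTC1 (Pearson r 0.962), GPSM1 (0.946) and ZNF516 (0.942). These values are descriptions, and the libraries share the time order and the replicate number. WDTC1 had 11.8 and 11.2 TPM at 34 h, where PAX2 was the higher in replicate 2. Later its replicates stood in the same order as those of PAX2, with 22.9 and 17.6 TPM at 42 h, 24.7 and 19.9 at 50 h, then 22.3 and 27.4 at 72 h. For PAX8 the most similar were CEMP1 (0.896), AC270277.2 (0.894) and AC072052.1 (0.890), all 3 highest in replicate 2 at 50 h. For LMX1B they were CFL1P1 (0.912), AC114495.2 (0.907) and ZADH2 (0.873).

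The other genes of the isthmus circuit were present at very different levels. FGF8, the main organizer signal, stood at 7.25 and 7.89 TPM at 34 h, against 10.1 and 10.7 TPM at 72 h, and no change of it was called (72 h against 34 h 0.42, limma adjusted p 0.210). WNT1, which LMX1B is known to sustain, was listed at 0 in all 34 and 50 h libraries and had between 0.264 and 0.382 TPM at 42 and 72 h. FGF18 rose from 0.664 and 0.434 TPM to 8.53 and 5.72 TPM at 42 h (2.37, limma adjusted p 0.00143), having passed the filter only through 42, 50 and 72 h, and was back at 0.956 and 1.21 TPM at 72 h. FGF17, not called at any time against 34 h, had 2.75 and 0.330 TPM at 42 h, the same order of replicates as PAX2. Of this list of 4 signals, 3 were tested, and 1 was raised at 42 h, 1 at 50 h and none at 72 h. Over all tested genes 2.58%, 6.26% and 24.0% were called at these times.

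On the list of genes that position the boundary, 10 of 11 were tested, with 7 raised and 1 lowered at each of 42, 50 and 72 h, where 2.58%, 6.26% and 24.0% of all tested genes were called. Of the raised, SP5 passed the filter only through the later time points. The median of the list at 72 h was 1.92, beside 0.06 over all tested genes. OTX2 fell from 168 and 151 TPM to 31.8 and 38.8 TPM at 72 h, and GBX2 rose from 1.31 and 1.21 TPM to 112 and 119 TPM. HES3, a bHLH repressor known from the isthmus, rose from 117 and 81.8 TPM at 34 h to 318 and 263 TPM at 42 h (1.55, limma adjusted p 0.00617), then 363 and 359 TPM at 72 h. Over the 6 libraries taken after 34 h, PAX2 had at most 4.79 TPM where GBX2 had at least 85.9 TPM, OTX2 at least 31.8 TPM and HES3 at least 247 TPM.

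**Figure D4:**
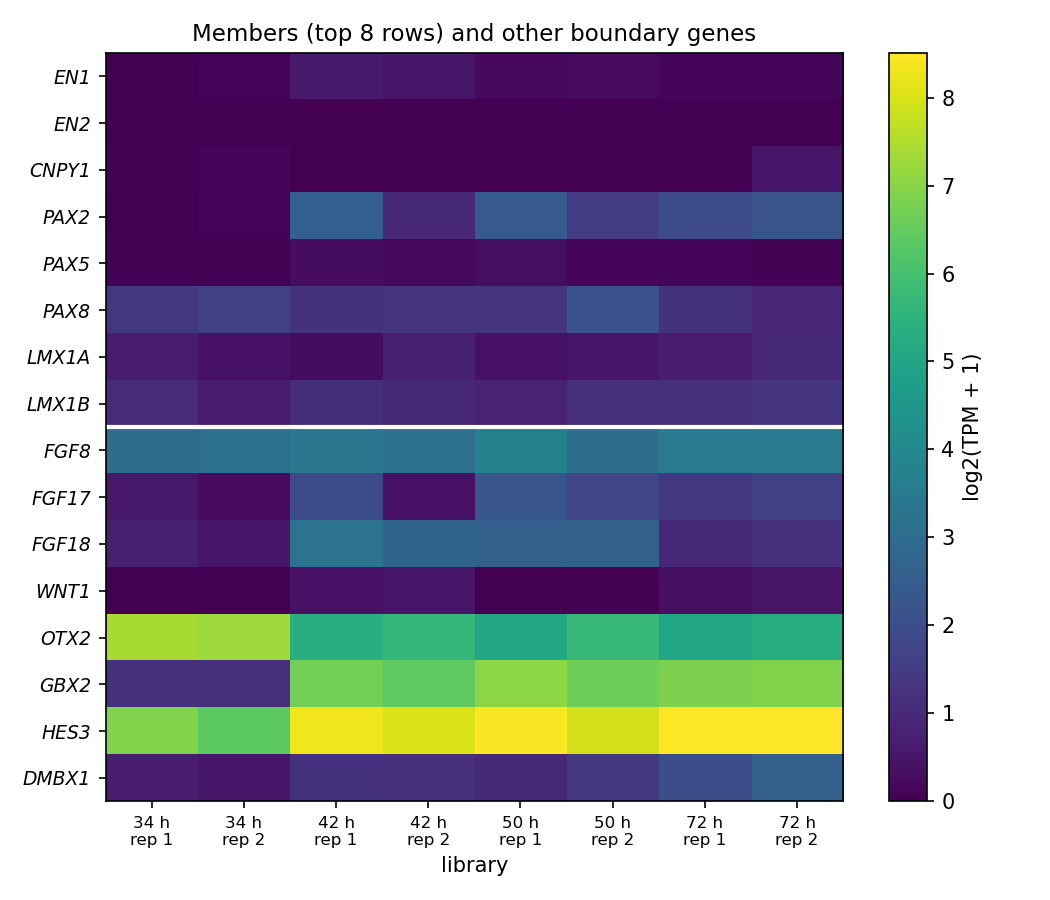
Colour gives log2(TPM + 1) in each of the 8 libraries (x axis) for the 8 members (rows above the white line) and 8 other genes of the midbrain and its boundary (rows below). GBX2 and HES3 are bright from 42 h on and OTX2 is brightest at 34 h, while the member rows are dark, with PAX2, PAX8 and LMX1B the lightest of them.

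Genes that act with the members in midbrain development were mostly too low to test on the ventral list and partly so on the dorsal one. On the list for floor plate and dopamine neurons, 2 of 13 genes were tested: MSX1, also a roof plate gene, was raised at 72 h (listed at 0 in both 34 h libraries, 1.897 and 1.62 TPM at 72 h, limma adjusted p 0.00214, in the test only through the time points after 34 h) and FOXA2 was lowered (11.9 and 13.4 TPM to 0.575 and 0.866 TPM). TH, the enzyme of dopamine synthesis, did not exceed 0.474 TPM in any library. On the list for dorsal midbrain and roof plate, where LMX1A acts, 6 of 10 were tested. At 72 h 4 of these were raised and 1 lowered, where 24.0% of all tested genes were called in either direction. Of those raised, PAX3, DMBX1 and MSX2 passed the filter only through later time points, which partly set the count and the median. The median of the 6 was 1.71, beside 0.06 over all tested genes and 3.87 for the 7 tested hindbrain markers. Among the raised were DMBX1, a midbrain homeobox gene, from 0.612 and 0.433 TPM to 3.13 and 5.13 TPM, and OLIG3, from 6.60 and 6.46 TPM to 194 and 167 TPM.

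Cofactors of the members ranged from low to abundant. TLE corepressors bind the Engrailed proteins and the octapeptide of PAX2, PAX5 and PAX8, and LDB1 binds LIM domains. Of 10 such cofactors, all tested, 6 rose and 3 fell by 72 h, with a list median of 0.51 beside 0.06 over all tested genes, of which 24.0% were called. LDB1 rose from 73.3 and 69.9 TPM at 34 h to 98.0 and 109 TPM at 72 h (limma adjusted p 0.0188), and TLE3 rose from 43.7 and 45.4 TPM to 90.7 and 77.7 TPM (0.00653). TLE2 fell from 17.5 and 11.04 TPM to 2.32 and 3.37 TPM (-1.97, limma adjusted p 0.00269), the largest change on this list. TLE1 (-0.41) and SSBP3 (-0.33) were the other 2 that fell. On the list of 12 FGF feedback genes, targets and receptors, 2 were raised and 5 lowered at 72 h, against the same 24.0% called over all, with a median of -0.20 and changes of 2.84 for FGFR3, -2.19 for ETV4 and -1.91 for SPRY4.

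PAX2 and PAX8 also mark other tissues, and markers of those were read beside them. Of 8 kidney and intermediate mesoderm markers WT1 was listed at 0 in all 8 libraries, and OSR1 and GATA3 did not exceed 0.156 and 0.0628 TPM. Of the 3 that were tested, 2 were raised at 42 h: SALL1, and LHX1, from 0.448 and 0.174 TPM to 3.24 and 2.31 TPM (limma adjusted p 0.0236), beside 2.58% called over all tested genes. LHX1 passed the filter only through 42 and 50 h and was at 0 and 0.107 TPM at 72 h, and EYA1 stayed between 1.59 and 2.64 TPM. The summed level of the 8 was 50.8 to 61.0 TPM at 34 h and 126 to 131 TPM at 72 h, most of it SALL1 (130 and 124 TPM at 72 h), which neural progenitors also express. The part of these in the change of PAX2 was not tested. For the otic placode FOXI1 and TBX2 were listed at 0 throughout, and the summed level was 28.4 to 30.6 TPM at 34 h and 16.0 to 17.8 TPM at 72 h, most of it FOXI3. The thyroid markers summed to at most 3.58 TPM and the B cell markers of PAX5 to 0.917 to 1.11 TPM at 34 h and 1.89 to 4.10 TPM at 72 h. Of the B cell markers MS4A1, VPREB1 and IGLL1 were at 0 throughout, EBF1 went from 0.0304 TPM and a listed 0 at 34 h to 0.897 and 1.06 by 72 h, and CD79B from 0.254 and 0.440 TPM to 0.759 and 2.34. EBF1 was not tested and no change of CD79B against 34 h was called. Limb mesenchyme markers, read for LMX1B, summed to 0.260 to 0.434 TPM at 34 h and 6.94 to 8.78 TPM at 50 h, with TBX5 and HAND2 at 0. Most of the 50 h level was PRRX1, a mesenchymal homeobox gene, which had 0.0308 and 0.0193 TPM at 34 h, 2.42 and 3.26 TPM at 42 h (limma adjusted p 0.00494), and 4.79 and 6.72 TPM at 50 h (0.000478). PRRX1 passed the filter only through the time points after 34 h. At 72 h it had 3.27 and 2.58 TPM (0.000943), and its part in the levels of LMX1B was not tested.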

How the data were processed

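Poly(A) RNA of 8 ESI017 libraries, 2 at each of 34, 42, 50 and 72 h, was analysed. The authors deposited 1 table of TPM for each gene, of which all value columns were used. Salmon 1.9.0 and GRCh38 are named in the submitters' processing notes; the annotation and any filter are not given in the sources used here. TPM keeps no read number, so depth is unknown and no counting interval was computed. Rows with the same gene name were summed. Most rows were protein coding genes (19788) or pseudogenes by GENCODE 29, and the lncRNA genes that overlap members were not analysed here.

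Genes reaching 1 TPM in 2 or more libraries were fitted as log2(TPM + 1), a scale that shrinks changes of low genes, with 1 mean per time point over all 8 libraries and a variance trend (limma 3.58.1, R 4.3.3). Adjusted p-values are two-sided Benjamini-Hochberg values over all 14908 tested genes, called under 0.05. With 2 libraries against 2, the smallest exact permutation p is 0.333, so none was run. The fit was tested on simulated data, where it missed some of the larger and many of the smaller changes, so a gene that was not called may still have changed. The series text calls the replicates biological and independent, and the labels give the replicate number as a batch. Differences between replicates 1 and 2 correlated across genes at 0.0949, 0.195 and 0.142 among 34, 42 and 50 h and at -0.0445, -0.0779 and -0.104 between these and 72 h. Pairing thus rests on the batch label. Fits were repeated with another pseudocount, other filters, 3 scalings (a trimmed mean of log ratios, quantiles, no mitochondrially encoded genes), no variance trend, each pair of time points alone, a replicate block, Ensembl rows apart, and each library left out.

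The members and lists were chosen with earlier results of these data known. Named were all members, OTX2, GBX2, WNT1, FGF8, the up to 4 called genes of a list with the highest change at 72 h, markers at 1 TPM, and the 3 genes most like each tested member. FGF17, FGF18, HES3, TH, LDB1, TLE1, SSBP3, PAX7, EBF1, CD79B and the markers named at or near 0 were chosen after their values were seen. Not every gene that met the rule is printed.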

Additional observations from a re-analysis of the deposited data

How the results depend on the processing

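Leaving out 1 library at a time gave between 0 and 1 changed members at 42, 50 and 72 h against 34 h and over the 4 time points, and 0 for 50 h against 42 h and 72 h against 50 h. A pseudocount of 0.1 gave 1 changed member at 42 h, 1 at 50 h and 1 over the 4 time points, where the values reported were 0. Without the filter on low values there was 1 at 42 h (EN1), 0 at 72 h and 1 over the 4 time points (EN1). The compared time points alone gave 1 at 50 h, the replicate block gave 1 at 50 h and 1 over the 4 time points, and leaving out mitochondrially encoded genes gave 1 over the 4 time points; in these fits it was PAX2. The replicate block changed no other call of a member. A mean of at least 5 TPM left no member to test, and at 42 h against 34 h the compared time points alone left PAX2 under the filter. The estimate for PAX2 against 34 h was above 0 in every alternative that tested it, and past the threshold in 2 of 16 at 42 h, 5 of 17 at 50 h and 12 of 17 at 72 h. Every later library of PAX2 lay above both 34 h libraries, so its sign against 34 h was fixed by the values and is no separate support. Without 1 library some estimates that did not pass changed sign. PAX2 then ranged from -0.58 to 0.98 for 50 h against 42 h and from -0.33 to 0.57 for 72 h against 50 h. PAX8 ranged from -0.25 to 0.62 for 50 h against 34 h. LMX1B ranged from -0.0460 to 0.35 at 42 h and -0.0703 to 0.33 at 50 h against 34 h, and from -0.18 to 0.13 for 50 h against 42 h. The cause was not tested. Unknown depth and levels under 1 TPM limit EN1, EN2, PAX5, LMX1A and CNPY1.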

Other observations

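Related PAX and LIM-homeodomain genes outside the midbrain set were read in the same way. Of the other 6 PAX genes 2 were tested, and both were raised at 72 h against 34 h by limma, where 12.7% of all tested genes were. Both passed the filter on low values only through 72 h, so this direction was largely set by the filter: PAX3, a dorsal neural tube gene, from 0.269 TPM and a listed 0 to 4.81 and 4.24 TPM, and PAX6, a neural progenitor gene, from 0.0270 and 0.281 TPM to 4.01 and 3.59 TPM. PAX7 was above 0.5 TPM in both 42 h libraries (0.566 and 0.579 TPM) and under 0.06 TPM at 72 h. Of 10 other LIM-homeodomain genes 5 were tested. Against 34 h, 2 were raised at 42 h, 2 were raised at 50 h and 2 were lowered at 72 h. The shares called over all tested genes were 2.58%, 6.26% and 24.0%. LHX1 (raised from 0.448 and 0.174 TPM to 3.24 and 2.31 TPM, limma adjusted p 0.0236) and LHX2 were raised at 42 h, and both passed the filter only through 42 and 50 h, where they were high. LHX4 and LHX5 were lowered at 72 h. LHX4 first rose, from 4.67 and 4.18 TPM at 34 h to 8.73 and 9.45 TPM at 50 h (0.90, limma adjusted p 0.0214). It had 2.08 and 2.78 TPM at 72 h. LHX5 had 33.7 and 21.7 TPM at 34 h, against 14.1 and 13.6 TPM at 72 h, more than LMX1A or LMX1B in any library.

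The other CNPY genes were far above CNPY1. CNPY2 fell from 183 and 190 TPM at 34 h to 153 and 148 TPM at 72 h (-0.30, limma adjusted p 0.0248), and CNPY4 rose from 8.996 and 11.9 TPM to 18.4 and 19.7 TPM (0.82, limma adjusted p 0.00794).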
